A study of Mus musculus with 2 samples.

Results

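Of 9 genes that mark stem and progenitor cells of the stomach, 8 gave a lower signal in organoids of aged mice than in organoids of young mice, and 1 gave a higher signal. The water channel gene *Aqp5* and the TNF receptor family gene *Tnfrsf19* were the farthest apart, and the scaffold gene *Iqgap3* ran the other way. Of the 8 genes, 4 were lower by less than 2-fold. Over the 11557 genes above a background reference on at least 1 array, the median log2 difference was 0.0021. Lower and higher signals were thus about equally common among them. The 9 genes were *Lgr5*, *Tnfrsf19*, *Aqp5*, *Runx1*, *Prom1*, *Iqgap3*, *Cd44*, *Lrig1* and *Sox9*. They were chosen by name as known markers, with earlier results of these arrays already known. Each was measured by 1 probe set that carries its symbol alone, and they were 9 of 19505 genes with such a name. Gastric organoids had been established from minced stomachs of C57BL/6 mice, either young (2 to 4 months of age) or aged (more than 18 months), and total RNA was hybridized to Clariom S mouse arrays. There was 1 array per group, and the sources used here do not say how many mice or which passage stood behind each. Both cultures grew in the same medium, which held Wnt3a, R-Spondin1 and Chir99021 (activators of Wnt signaling), murine EGF, Noggin, human FGF10, SB431542, Y-27632 and Valproic acid (the growth protocol of the labels is the same for both).

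The glands of the stomach renew from stem and progenitor cells that sit in the isthmus and, in the antrum, at the gland base. Wnt ligands and R-spondins keep the gland base cells dividing, and *Lgr5*, *Sox9*, *Cd44* and *Tnfrsf19* are among the genes known as targets of this signaling in gut epithelium. In the mouse corpus, *Lgr5* and *Tnfrsf19* also mark some chief cells, the enzyme-secreting cells of the gland base, which can return to division after injury.

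Signals are logarithms from the authors' RMA normalization, taken here as log2, so that a difference of 1 is a 2-fold difference. The young signal was subtracted from the aged signal throughout. Since each group had 1 array, no standard error or p-value exists, and age cannot be told apart from any other difference between the cultures. In whole organoids, fewer cells of a type and less RNA per cell cannot be told apart either. A background reference was taken from 1410 receptor genes of smell and pheromone sensing, genes of sensory neurons rather than of gastric epithelium, as the 95th percentile of their signals. It was 5.36 for the young array and 5.54 for the aged array. The differences of these receptor genes had an SD of 0.51, which is a measure of precision for dim signals only. All 8 epithelial markers examined were above the reference on both arrays, as were the 4 stomach genes *Sox2*, *Cldn18*, *Ctse* and *Psca*, while none of 5 leukocyte, 4 endothelial, 3 smooth muscle and 2 glial markers was above it on either. Of 6 fibroblast markers, 1 was above it in young organoids and 2 in aged organoids. *Psca* is also 1 of 5 pit cell markers, of which 3 were above the reference in young organoids and 2 in aged organoids. Of these, *Gkn2* was only just above it (5.85 and 5.65), and *Tff1* was under it in aged organoids (5.84 and 4.83). *Muc5ac* (4.45 and 3.84) and *Gkn1* (4.89 and 5.35) were at background on both arrays. Leukocytes express *Runx1* and *Cd44*, and the leukocyte marker *Ptprc* lay at 5.18 and 5.22.

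All 9 markers were above the reference on both arrays. Lower in aged organoids by 2-fold or more were 4 of them, *Aqp5*, *Tnfrsf19*, *Runx1* and *Prom1*, beside 11.8% of the 11557 genes above the reference on at least 1 array. Higher by 2-fold or more was 1, *Iqgap3*, beside 11.3% of those genes. In either direction these were 5 of 9 markers beside 23.2% of those genes. The other 4, *Lgr5*, *Lrig1*, *Sox9* and *Cd44*, had a lower signal in the aged array by less than 2-fold. The median difference of the 9 genes was −0.98, against 0.0021 for all genes above the reference, whose central 50% of differences ran from −0.48 to 0.51. These markers were proposed with earlier results of the arrays known, so their count describes them and was not tested.

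**Figure D1:**
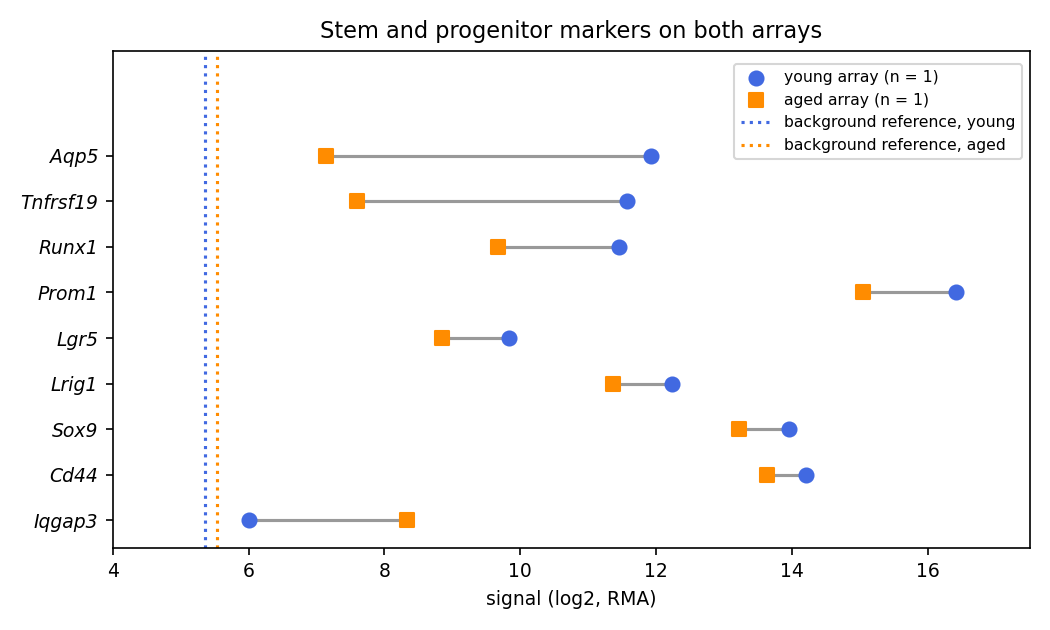
Signal of each marker gene (log2, horizontal axis) on the young array (blue circles) and the aged array (orange squares), 1 array per group, ordered by the difference. Dotted lines are the background references at 5.36 and 5.54. The aged square lies left of the young circle for 8 genes and right of it for *Iqgap3*, whose young signal of 6.00 is the closest to background. Signals of different genes come from different probes and are not to be compared with each other.

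*Aqp5* encodes a water channel and marks stem cells and mucous cells of the pyloric glands in the mouse. Its signal was 11.92 in young organoids and 7.14 in aged organoids, a difference of −4.78, or 27.6-fold. The aged signal was still 1.60 above the reference. Among the 11557 genes above the reference, *Aqp5* ranked 84 from the most negative difference. Beside it, the antral hormone gene *Gast* was not above the reference on either array (3.37 and 3.91), and *Pdx1*, a transcription factor gene of the antrum and duodenum, was at 6.21 and 6.09. The mucous neck cell gene *Tff2* ran opposite to *Aqp5*, from 4.43 on the young array, under the reference, to 12.76 on the aged array, at least 169-fold higher. *Muc6*, the other neck cell gene of the lists, was not analysed here, so *Tff2* stands alone for these cells. The part of a change in mucous or antral cells in the *Aqp5* difference was not tested.

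The aquaporin family as a whole was not lower. Of 12 aquaporin genes measured, 5 were above the reference on 1 or both arrays. Among the 5, 2 were lower by 2-fold or more, 2 higher by 2-fold or more and 1 less than 2-fold apart. *Aqp4*, a water channel of the basolateral membrane of parietal and chief cells, was at 14.00 in young organoids and 5.34 in aged organoids, under the reference there, and hence at least 353-fold lower. *Aqp3*, which passes water and glycerol, went from 3.95, under the reference, to 9.92, at least 23.6-fold higher. *Aqp11*, an intracellular channel, was 2.78-fold higher (11.99 and 13.47), and *Aqp1* differed by 0.33 (6.25 and 6.58). *Aqp1* lies on chromosome 6, where the median difference was larger, at 0.68. The other 7, *Mip*, *Aqp2*, *Aqp6*, *Aqp7*, *Aqp8*, *Aqp9* and *Aqp12*, were at background on both arrays. Thus the channels above background differed between the arrays in both directions.

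*Tnfrsf19* encodes TROY, a receptor of the TNF receptor family and a Wnt target, which marks chief cells able to act as stem cells in the mouse corpus. Its signal was 11.57 in young organoids and 7.60 in aged organoids, a difference of −3.98, or 15.7-fold, at rank 132 from the most negative difference. Of its close relatives, *Eda2r*, which encodes the ectodysplasin A2 receptor and is a p53 target, was lower too (12.64 and 10.92, 3.28-fold), and *Edar* was at background (5.29 and 5.35). Among 12 other TNF receptor genes, 9 were above the reference, with a median difference of 0.25. The death receptor gene *Fas* was 4.32-fold lower (7.99 and 5.88), while *Tnfrsf21*, which encodes death receptor 6, was 3.48-fold higher (7.31 and 9.11) and the lymphotoxin receptor gene *Ltbr* 2.02-fold higher (11.82 and 12.83). *Ltbr* and *Tnfrsf1a* lie on chromosome 6, whose genes were higher in the aged array by a median of 0.68. The difference of *Tnfrsf1a*, 0.25, was below that median. The remaining 6 of the 9, *Tnfrsf1a*, *Tnfrsf1b*, *Tnfrsf10b*, *Tnfrsf11a*, *Tnfrsf12a* and *Tnfrsf25*, were less than 2-fold apart, and *Relt*, *Cd40* and *Ngfr* were at background on both arrays.

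Of 6 chief cell genes, 2 were lower by 2-fold or more, like *Tnfrsf19*, and none higher. The pepsinogen gene *Pgc* was at 15.88 in young organoids and 5.19 in aged organoids, and the intrinsic factor gene *Cblif* at 13.91 and 3.65, both under the reference in the aged array. *Pgc* was thus at least 1296-fold lower and *Cblif* at least 332-fold lower. Of the 6 chief cell markers examined, 3 were above the reference on the young array and 1, the vesicle trafficking gene *Rab3d* (9.28 and 9.54), on the aged array, and their mean signal was 8.51 and 4.97. *Bhlha15*, which encodes MIST1, the transcription factor of mature chief cells, was at background on both arrays (4.63 and 3.79), as were the enzyme genes *Pga5* and *Lipf*. The part of chief cells in the *Tnfrsf19* difference was not tested.

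*Lgr5* encodes a receptor for R-spondins, the secreted factors that strengthen Wnt signaling. Its signal was 9.84 in young organoids and 8.85 in aged organoids, a difference of −0.98, or 1.97-fold, just short of the 2-fold limit. Centred on the receptor genes for smell or on 12 expression reference genes, the same difference was −1.10 and −1.14, which is past that limit. The receptor genes have dim signals, however, and the reference genes themselves differed by −1.59 (*B2m*) to 1.63 (*Pgk1*). The *Lgr5* paralog *Lgr4* had a similar difference of −0.63 (14.39 and 13.76), and *Lgr6* was at background (4.92 and 5.15). The R-spondin genes *Rspo1*, *Rspo2*, *Rspo3* and *Rspo4* were at background on both arrays, so no signal for an R-spondin made by the organoids themselves was detectable. Of the 11 measured genes of the R-spondin and Wnt receptor module other than *Lgr5*, 6 were above the reference, of which 2 were lower by 2-fold or more and none higher by 2-fold or more, with a median of −0.38. Both were Wnt receptor genes of the Frizzled family. *Fzd5* was 3.09-fold lower (8.31 and 6.68) and *Fzd7* 2.26-fold lower (10.76 and 9.58). The coreceptor gene *Lrp6* differed by 0.68 (10.63 and 11.31) and lies on chromosome 6, while *Lrp5* (9.87 and 9.90) and *Znrf3* (11.60 and 11.47), which encodes a ubiquitin ligase that removes Frizzled receptors, were nearly level. *Rnf43* was not analysed here.

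*Runx1* encodes a DNA-binding transcription factor of blood and epithelia, and in the mouse stomach an enhancer of the gene is active in isthmus stem cells and chief cells. Its signal was 11.46 in young organoids and 9.68 in aged organoids, a difference of −1.78, or 3.44-fold. Its binding partner *Cbfb* differed by −0.23 (8.50 and 8.27), and *Runx3* was at background (3.62 and 3.92). Of 7 corepressor genes that act with RUNX proteins, 4 were above the reference (*Tle1*, *Tle3*, *Tle4* and *Cbfa2t2*), all less than 2-fold apart, with differences from −0.63 for *Tle4* to 0.76 for *Tle3*, while *Tle2*, *Runx1t1* and *Cbfa2t3* were at background. *Runx2* was not analysed here. So among these partners only *Runx1* itself was at least 2-fold apart.

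*Sox9*, the other transcription factor gene of the group, encodes an HMG box protein of gut progenitor cells. Its signal was 13.96 in young organoids and 13.23 in aged organoids, a difference of −0.74, or 1.67-fold. *Sox8* and *Sox10*, its closest relatives, were at background on both arrays.

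*Prom1* encodes prominin-1 (CD133), a membrane protein of cell protrusions that is used as a stem cell marker but is also made by many luminal epithelial cells. Its signal was 16.41 in young organoids and 15.05 in aged organoids, a difference of −1.36, or 2.57-fold. The paralog *Prom2* ran the opposite way, from 9.99 to 12.45, which is 5.52-fold higher in the aged array. The signals of both prominin genes thus differed by 2-fold or more, in opposite directions.

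*Cd44* encodes a receptor for the matrix polymer hyaluronan and is made by undifferentiated cells of the isthmus. Its signal was 14.20 in young organoids and 13.64 in aged organoids, a difference of −0.56, or 1.48-fold. The annotation pairs its 1 probe set with 6 RefSeq transcripts, and the signal does not tell the splice variants of *Cd44* apart. The genes of the splicing regulators that favor epithelial variants, *Esrp1* (10.23 and 10.53) and *Esrp2* (12.56 and 12.25), were nearly level. *Hmmr*, the gene of another hyaluronan receptor that also acts at the mitotic spindle, was 5.52-fold higher in the aged array (6.72 and 9.19). The hyaluronidase gene *Hyal2* was 3.43-fold lower (11.05 and 9.27), and the hyaluronan synthase genes *Has1*, *Has2* and *Has3* were at background, as were *Lyve1*, *Stab2* and *Cemip*, while *Hyal1* and *Spp1* were not analysed here. Of the ERM genes and *Nf2*, whose products bind the tail of CD44, only moesin (*Msn*) was at least 2-fold apart, 2.35-fold lower (8.03 and 6.80), while *Ezr*, *Rdx* and *Nf2* were less than 2-fold apart.

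*Lrig1* encodes a membrane protein that lowers signaling of EGF family receptors and marks progenitor cells of several epithelia. Its signal was 12.23 in young organoids and 11.36 in aged organoids, a difference of −0.87, or 1.82-fold. It is the only one of the 9 genes on chromosome 6. Relative to the median of 0.68 of the 552 genes above the reference on that chromosome, *Lrig1* differed by −1.55, or 2.93-fold, while the medians of the chromosomes of the other 8 genes lay between −0.069 and 0.0086. Why chromosome 6 was higher was not tested. The relatives of *Lrig1* did not share a direction. *Lrig3* was 6.09-fold lower in the aged array (9.96 and 7.35) and *Lrig2* had a higher signal by 0.96 (6.50 and 7.46). Of the EGF family receptors that LRIG1 binds, *Egfr* was 2.96-fold lower (8.37 and 6.80), *Erbb2* (9.65 and 10.47) and *Erbb3* (8.11 and 8.62) differed by 0.82 and 0.52, and *Erbb4* was at background.

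**Figure D2:**
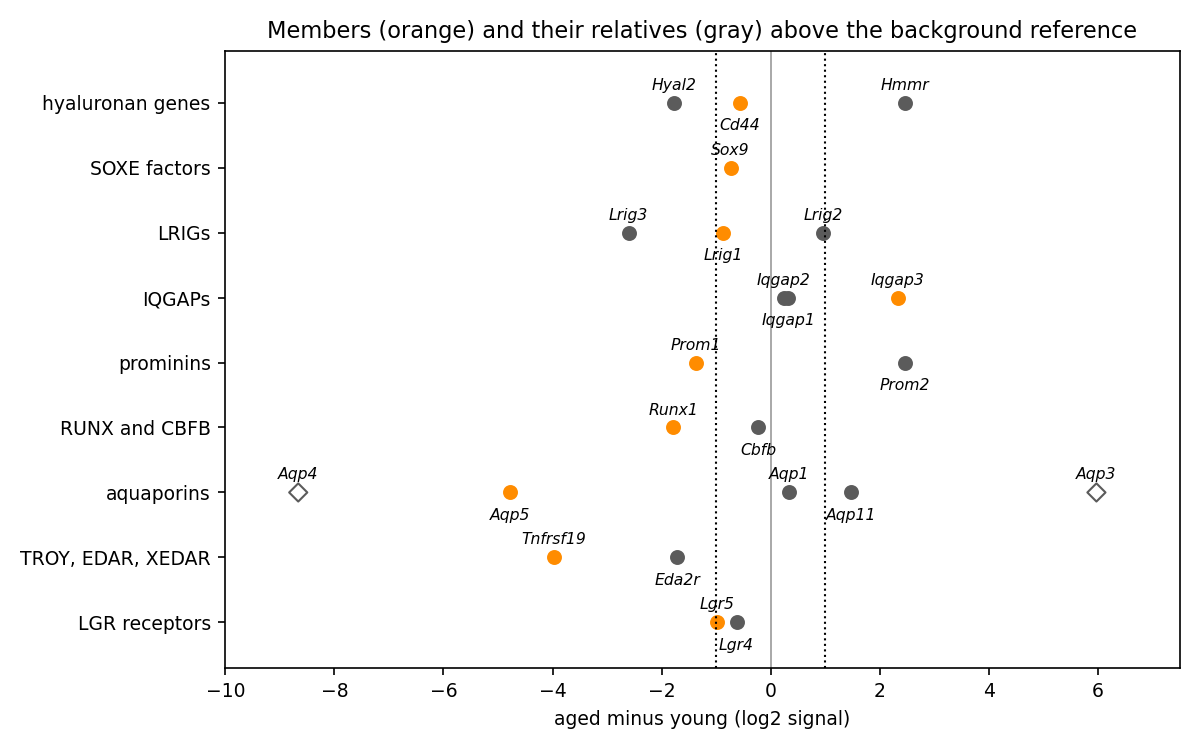
Aged minus young difference (log2, horizontal axis) of the marker genes (orange) and of their relatives (gray) that were above the background reference on at least 1 array, 1 row per family. Open diamonds are genes under the reference on 1 array, so only a lower bound of their fold is known. They are placed at the difference of their signals, which is larger than that bound (353-fold for *Aqp4*, 23.6-fold for *Aqp3*). Dotted lines mark 2-fold. *Aqp4* and *Aqp3* stand at −8.66 and 5.97 on either side of *Aqp5*, and *Prom2* at 2.47 opposite *Prom1*.

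*Iqgap3* encodes a scaffold protein that binds the GTPases RAC1 and CDC42. It is made in dividing cells and marks cycling isthmus cells of the mouse stomach. Its signal was 6.00 on the young array, 0.64 above the reference, and 8.33 on the aged array, a difference of 2.33, or 5.03-fold. Among the genes above the reference it ranked 279 from the most positive difference. Its young signal lay closest to the reference among the 9. The other scaffold genes of the family, *Iqgap1* (13.33 and 13.66) and *Iqgap2* (12.87 and 13.11), differed by 0.32 and 0.24, and the GTPase genes *Rac1* (17.14 and 16.85) and *Cdc42* (17.33 and 16.85) by −0.30 and −0.48. So *Iqgap3* stood apart from its paralogs and from its binding partners.

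It moved with the genes of cell division. Of 12 proliferation genes measured, 11 were higher by 2-fold or more in the aged array and none lower by 2-fold or more, with a median difference of 2.80. The largest differences were those of the cyclin gene *Ccna2* (7.15 and 11.47), the spindle checkpoint gene *Bub1* (5.44 and 9.52), the cyclin gene *Ccnb2* (8.59 and 12.42) and *Mki67*. *Mki67*, which encodes the Ki67 antigen, was at 11.33 and 14.75, a 10.7-fold difference, and *Pcna* (14.05 and 14.93) was the 1 gene less than 2-fold apart. Of 9 genes of cytokinesis, 5 were higher by 2-fold or more, namely *Prc1*, a spindle midzone gene that was under the reference on the young array (5.30 and 8.89, at least 11.5-fold higher), *Racgap1* (8.06 and 11.07), *Kif23* (9.28 and 11.49), *Anln* (6.72 and 8.48) and *Cit* (5.52 and 7.28). *Ect2*, whose product activates RHOA at the division plane, was less than 2-fold apart (11.07 and 11.88), as was *Rhoa* (14.14 and 14.27). The part of the share of dividing cells in the *Iqgap3* difference was not tested. Among the 119 genes of the lists examined here that are not themselves among the 9 markers and were above the reference, those with the difference nearest to that of *Iqgap3* were *Kif23* (gap 0.12), *Hmmr* (0.13) and *Prom2* (0.13). *Aqp5* and *Tnfrsf19*, set against the same 119 genes, were nearest to *Dclk1*, *Lrig3* and *Fas*, with gaps of at least 1.93 for *Aqp5* and at least 1.12 for *Tnfrsf19*. With 2 arrays this likeness is that of a single difference.

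**Figure D3:**
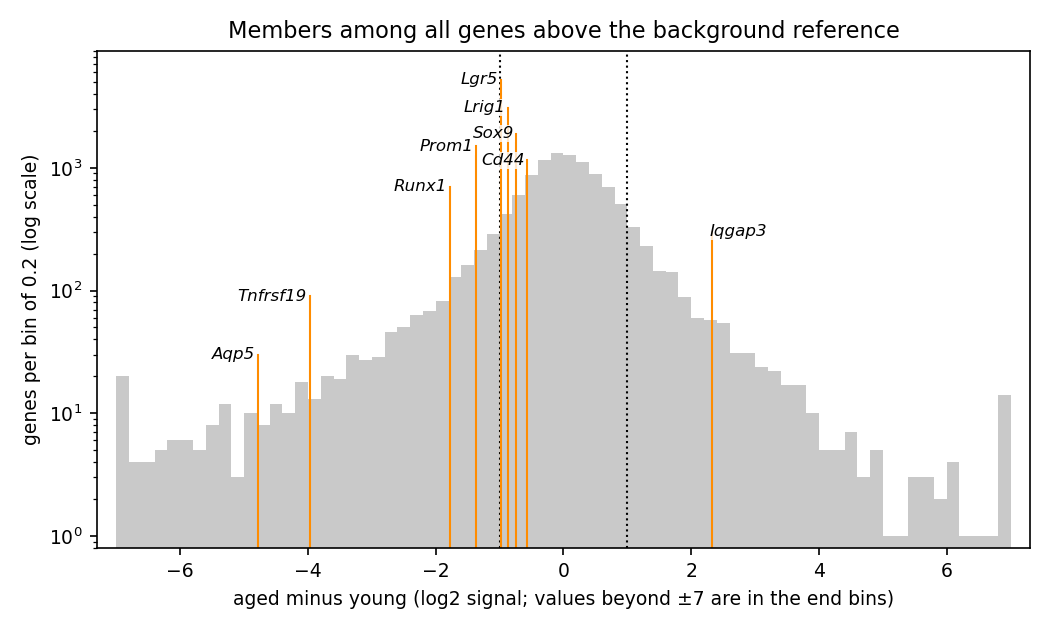
Number of genes (log axis) by aged minus young difference (log2, bins of 0.2) for the 11557 genes above the background reference on at least 1 array, with values beyond the axis collected in the end bins. Orange lines are the marker genes and dotted lines mark 2-fold. *Aqp5* at −4.78 and *Tnfrsf19* at −3.98 lie in the sparse left tail, *Iqgap3* at 2.33 on the right, and *Cd44* at −0.56 close to the bulk of genes.

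Promoter sequence is shown for the 3 markers whose signals were farthest apart, as the stretch of genome next to a start of each gene. The table of RefSeq promoters used here, on build GRCm38.p6, held 10 starts for 7 of the 9 genes. *Lgr5* and *Sox9* were not analysed here. The 250 bases before each start were searched on both strands for 5 short motifs, picked after the sequences had been seen. A match is a string of letters and not a measured binding site. The *Aqp5* window (chr15:99590778-99591027, plus strand) was rich in GC (78.4%, against a median of 52.4% over 32851 starts of all genes) and in CpG, with an observed over expected ratio of 1.01 (median 0.374). Its capitals mark GC boxes (GGGCGG), which were found in 4 of the 10 windows and in 32.7% of all. The *Tnfrsf19* window (chr14:61037988-61038237, minus strand) precedes the inner of its starts, which lies 8868 bases inside the gene. The window before the outer start (chr14:61046856-61047105), not shown, held 0 matches to the 5 motifs. In the inner window shown, capitals mark the TCF/LEF motif CTTTGAT on the opposite strand, 202 to 196 bases before the start. This motif, bound by the transcription factors of the Wnt pathway, was found in 1 of the 10 windows and in 3.2% of all. The *Iqgap3* window (chr3:88081801-88082050, plus strand) ends 49 bases inside the longest RefSeq model of the gene. Its capitals mark the letters of the cell cycle genes homology region (CHR, TTTGAA) on the opposite strand, 19 to 14 bases before the start, found in 1 of the 10 windows and in 16.0% of all. In each window only the 1 motif named for it is in capitals. The *Tnfrsf19* window also holds GC boxes in lower case, at 47 to 42, 25 to 20 and 20 to 15 bases before the start.
Aqp5: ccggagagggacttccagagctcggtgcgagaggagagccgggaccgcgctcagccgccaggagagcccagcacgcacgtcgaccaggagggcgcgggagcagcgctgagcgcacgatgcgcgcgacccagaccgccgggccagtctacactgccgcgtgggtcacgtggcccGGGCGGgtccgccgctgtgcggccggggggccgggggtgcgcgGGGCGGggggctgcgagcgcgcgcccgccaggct
Tnfrsf19: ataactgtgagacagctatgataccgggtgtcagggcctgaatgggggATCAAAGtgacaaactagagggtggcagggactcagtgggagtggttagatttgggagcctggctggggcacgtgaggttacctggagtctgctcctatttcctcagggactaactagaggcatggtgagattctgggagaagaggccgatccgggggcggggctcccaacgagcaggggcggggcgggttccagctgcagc
Iqgap3: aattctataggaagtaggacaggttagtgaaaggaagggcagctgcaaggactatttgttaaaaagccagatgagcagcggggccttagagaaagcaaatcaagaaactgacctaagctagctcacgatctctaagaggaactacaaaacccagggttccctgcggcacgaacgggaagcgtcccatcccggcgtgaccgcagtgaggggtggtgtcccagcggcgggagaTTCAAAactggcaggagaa
The remaining motifs, the RUNX core (TGTGGT, 14.0% of all windows) and the CCAAT box (CCAAT, 33.8%), were found in 1 and 4 of the 10 windows. The array does not show from which start a gene was transcribed.

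A wider set of 22 genes used elsewhere as stem or progenitor markers of gut epithelium did not share the direction of the 9. Of 20 measured, 15 exceeded the reference on 1 or both arrays. Among the 15, 6 were higher by 2-fold or more, 3 lower by 2-fold or more and 6 less than 2-fold apart, with a median of 0.088 against −0.98 for the 9 genes. Higher were *Mki67* and *Stmn1* (10.70 and 12.32), which follow division, *Hopx*, a marker of quiescent intestinal stem cells (8.83 and 10.93, 4.29-fold), the stomach factor *Sox2* (9.89 and 11.10), the polycomb gene *Bmi1* (9.72 and 10.82) and *Vil1* (11.85 and 12.85), which encodes villin and was only just past 2-fold at 2.01-fold. Lower were *Msi1*, which encodes an RNA-binding protein of progenitor cells and was under the reference in the aged array (7.01 and 5.41, at least 2.78-fold), *Rgmb*, a BMP coreceptor gene (8.73 and 7.40), and the telomerase gene *Tert* (5.74 and 4.50), which counts as lower by its signals but against the reference is known only as at least 1.15-fold lower. *Axin2*, the Wnt target most often read as a measure of the pathway, differed by 0.73 (8.81 and 9.55), opposite in sign to *Lgr5*, *Sox9*, *Cd44* and *Tnfrsf19*. The intestinal stem cell genes *Ascl2* and *Smoc2* and the progenitor marker *Cckbr* were at background on both arrays. Several of these genes, such as *Rgmb*, *Tert*, *Sox2*, *Bmi1* and *Vil1*, are named after their values were seen.

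Of 6 intestinal markers examined, 3 were higher in the aged array by 2-fold or more. Progenitor cells of the intestine are also known to make *Sox9*, *Prom1*, *Lgr5* and *Cd44*. The adhesion gene *Cdh17* was at 7.68 and 15.19, the galectin gene *Lgals4* at 9.48 and 16.24, and the transcription factor gene *Cdx2* at 5.83 and 11.70. *Cdx1*, a related transcription factor gene, was less than 2-fold apart (5.61 and 6.16), and *Fabp2* and *Muc2*, of absorptive and goblet cells, were at background on both arrays. The mean signal of the 6 was 6.27 in young organoids and 9.81 in aged organoids. The part of intestinal cells in the marker differences was not tested.

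The direction of each of the 9 differences was the same however the arrays were scaled, and their order changed only for *Lrig1*, with the median of its chromosome subtracted. Under the alternative scalings and with the median of each chromosome subtracted, *Aqp5* ranged from −4.94 to −4.74, *Tnfrsf19* from −4.13 to −3.92, *Runx1* from −1.94 to −1.71, *Prom1* from −1.52 to −1.32 and *Iqgap3* from 2.17 to 2.38. The genes less than 2-fold apart ranged from −1.14 to −0.93 for *Lgr5*, from −0.89 to −0.69 for *Sox9*, from −0.72 to −0.51 for *Cd44* and from −1.55 to −0.82 for *Lrig1*. Among all genes above the reference, 1311 were higher by 2-fold or more and 1369 lower by 2-fold or more as deposited, against 1043 and 1682 when centred on the expression reference genes.

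**Figure D4:**
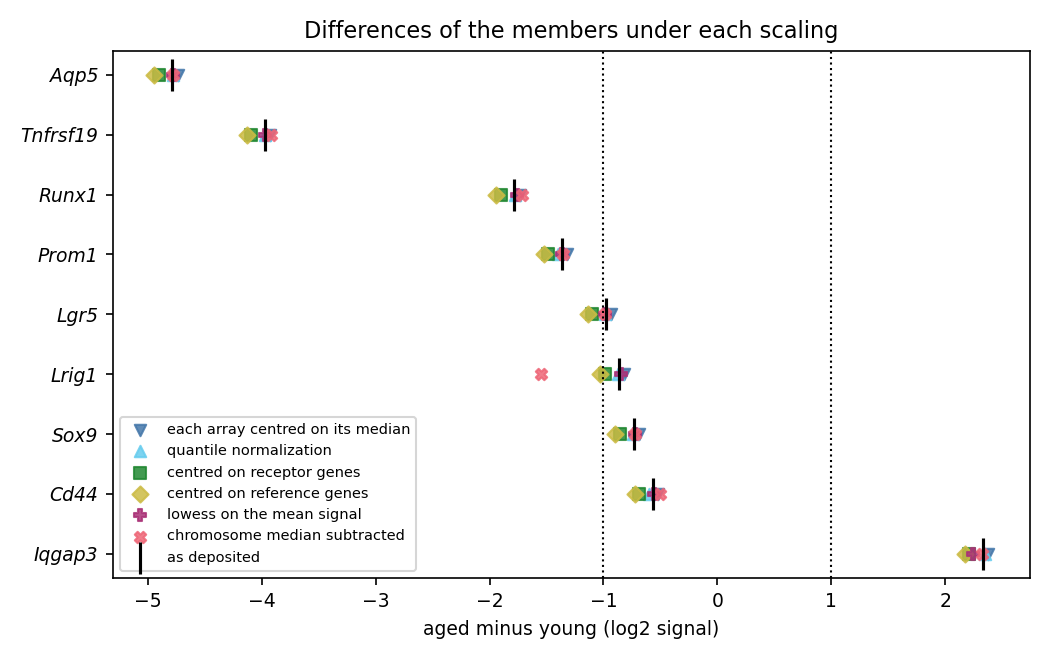
Aged minus young difference (log2, horizontal axis) of each marker gene as deposited (black bar) and under 6 other ways of scaling (colored symbols), with dotted lines at 2-fold. The symbols lie close together for every gene but *Lrig1*, which moves from −0.87 to −1.55 when the median of chromosome 6 is subtracted, and *Lgr5* sits next to the 2-fold line under all of them.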

How the data were processed

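Total RNA of young and of aged gastric organoids was measured on Clariom S mouse arrays, 1 per group. The authors deposited logarithmic RMA values (taken here as log2) for each probe set, computed with Affymetrix Power Tools (versions not given in the sources used here). No source names the logarithm's base, and every fold assumes base 2, the usual output of RMA. Signals reached 19.86, above the usual range of plain log2 RMA values, and whether a further transformation had stretched the scale was not tested. Of 22206 probe sets, 19572 carried exactly 1 gene symbol, and the other 2634 were not used. Names follow RefSeq through the gene identifier. Averaging the probe sets of 55 genes left 19505 genes.

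A gene counted as different at 2-fold or more, provided that it exceeded the reference (95th percentile of the olfactory and vomeronasal receptor genes) on at least 1 array. A gene under the reference on 1 array has a lower bound of its fold, computed from the reference, and a gene under it on both has none. With 1 array per group no test was run. By rule the text names every member, the genes of their families, up to 4 genes of any other list with the largest difference, and for 3 members the 3 list genes nearest in difference. Genes beyond this rule, such as *Pcna*, *Cdx1* and several of the other stem and progenitor markers, were named after their values were seen. Members and lists were chosen with earlier results of these data known.

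Alternatives covered scaling, chromosome medians, the reference, probe sets and the fold limit. The steps were run on simulated arrays, where every gene had the spread of the receptor genes and set differences were placed only in brighter genes. That run checked the counting and cannot show the precision of the real signals. Python 3.11.15, numpy 2.4.6, pandas 2.3.3, statsmodels 0.14.6 and matplotlib 3.10.9 were used. Promoter sequences are RefSeq's (GRCm38.p6).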

Additional observations from a re-analysis of the deposited data

How the results depend on the processing

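All 9 markers kept the sign of their difference under all 12 alternatives. Of 240 recomputed values, 224 counted as the same, many of them marker differences that could not change. For a marker this meant the same sign, the same side of the fold limit in use and a shift within the SD of the receptor genes. For a list median it meant no change of sign and a shift within that SD, and for a count a value within 1.5 times. At a limit of 1.5-fold, 7 markers were lower in the aged array in place of 4, and 1 gene of the R-spondin module was higher in place of none. At 3-fold, *Prom1* (−1.36) no longer passed, the other stem and progenitor markers held 3 higher and 1 lower, and the R-spondin module 1 lower. Over all genes these limits gave 2590 higher and 2456 lower, and 617 higher and 714 lower. The median of the other stem and progenitor markers over all 20 measured, −0.0096 as deposited, changed sign to 0.037 with each array centred on its median, 0.0016 after quantile normalization and 0.021 with chromosome medians subtracted, all close to 0. *Lgr5* passed 2-fold when centred on the receptor genes or the expression reference genes (shifts of −0.12 and −0.16 in all genes), and *Lrig1* passed it when centred on the reference genes (−1.03) or with the chromosome median subtracted. Setting dim signals at the reference, an alternative chosen after seeing the data, gave 1226 genes higher and 1184 lower. It could not alter the calls of the 9 markers, which exceeded the reference on both arrays. No paired analysis was possible because each group has 1 array. Without replicates the precision of bright signals is unknown.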

Other observations

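Of 3 regeneration markers measured, 1 was higher in the aged array by 2-fold or more, 1 lower and 1 level. Clusterin (*Clu*), a gene of revival stem cells in the injured mouse intestine, was at 19.86 in young organoids and 18.23 in aged organoids. Its young signal lay at the top of the array's range (highest signal 19.86), so no fold is given. The interleukin-1 receptor antagonist gene *Il1rn* was 9.76-fold higher (10.69 and 13.98), and the annexin gene *Anxa1* was level (15.63 and 15.68). *Dclk1*, a marker of tuft cells and of a rare long-lived cell of the gastric isthmus in mice, was 7.22-fold lower (8.73 and 5.88), while the tuft cell genes *Trpm5*, *Pou2f3*, *Avil* and *Gnat3* were at background on both arrays.

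The forestomach is the squamous part of the mouse stomach, and *Cd44* and *Lrig1* are known in its basal cells. Of 7 squamous markers measured, 1, involucrin (*Ivl*, 6.21 and 7.17), was above the reference. The basal keratin genes *Krt5* (3.34 and 3.68) and *Krt14* (4.08 and 4.81) and the basal cell factor *Trp63* (3.68 and 4.68) were at background. All 6 endocrine markers measured, among them *Chga*, *Sst* and *Ghrl*, were at background on both arrays. Of 6 parietal cell markers, the proton pump gene *Atp4a* (9.52 and 9.40) and *Esrrg* (7.20 and 7.03) were above the reference on both arrays, while *Atp4b*, the gene of the other pump subunit, was not on either (4.57 and 4.31).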
